A study of Caenorhabditis elegans with 26 samples.

Results

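The change in the miRNA pool of wild-type *C. elegans* larvae between an early and a late window of hours was measured by small RNA sequencing. The late window held the N2 libraries collected at 28, 29 and 30 h after plating, and the early window those collected at 18, 19 and 20 h, which together are 6 of the 26 libraries of the series. N2 is the laboratory wild-type strain. All animals were synchronized first-stage larvae put on food at 25 °C, with no treatment, and RNA was taken from whole worms washed off plates. The other libraries used here were the 7 N2 libraries from 21 to 27 h, for the course between the windows, and the 6 libraries of the same hours from HW2643, a strain that carries mir-235(xe181[seed_mutant]). Each strain and hour had 1 library, so the hours of a window stood in for replicates. Every SD below is the spread between hours of what the labels give as 1 time course. Every SE was derived from the F statistic of the edgeR test, whose estimate of that spread is drawn in part from all strands. Members were all rows of the count table other than the 2 for the edited miR-235 hairpin, 437 of 439 rows, of which 362 had a count in the 6 libraries. Bulk RNA cannot tell more or fewer cells of a type from more or less of a miRNA per cell.

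A miRNA is cut as a hairpin from a longer transcript, and Dicer then releases a short duplex of a 5p and a 3p strand. An Argonaute protein keeps one strand, the guide, which pairs with messenger RNAs through its seed and lowers their output, while the passenger strand is mostly discarded. In worms several miRNAs act as developmental timers. lin-4 and the let-7 family are the heterochronic miRNAs, in which the let-7 sisters miR-48, miR-84 and miR-241 act on an earlier larval transition and let-7 on the passage to adulthood, in part through *lin-41*. Here the strand with more counts over the 6 libraries is called the guide.

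The libraries held 2883572, 3587299 and 3306270 miRNA counts at 28, 29 and 30 h and 3059472, 2833216 and 2252981 at 18, 19 and 20 h, and levels are given as CPM (counts per 1000000 miRNA counts of the library). A count of 0 allows at most 3 counts, or between 0.836 and 1.33 CPM in these libraries. The library of 28 h stood apart from the others in scaling, with a TMM factor of 0.877 against 1.09 and 1.09 at 29 and 30 h and between 0.966 and 1.02 at 18 to 20 h. Intervals and floors cover counting error only. Libraries of a window differed far beyond counting noise (chi-square between 80.7 and 547 times its degrees of freedom), so none is a copy of another. Of single-tissue markers, muscle miR-1-3p had 31421 ± 1307 CPM late and 27402 ± 4700 CPM early (SD, n = 3 each), intestinal miR-60-3p 81.1 ± 11.9 CPM late and 48.0 ± 7.02 CPM early, and the 4 neuronal miRNAs together between 51.3 and 79.2 CPM late and between 94.1 and 113 CPM early. Their part in the results was not tested.

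Of 227 miRNA strands with enough counts to test, 22 rose (9.69%) and 22 fell (9.69%) at an adjusted p under 0.01, by edgeR's quasi-likelihood test with Benjamini-Hochberg adjustment, which gives every adjusted p below. In all, 111 had an unadjusted p under 0.05. The directions differed in size. Rises spanned 0.81 to 9.89 on the log2 scale, and 17 of the 22 were over 4-fold. Falls spanned -0.69 to -2.08, and 19 of the 22 were over 2-fold. The miRNAs that rose started rare, at a median of 2.66 CPM early, whereas those that fell had a median of 475 CPM early and all tested strands a median of 82.5 CPM. Of the 22 risers, 12 averaged under 5 CPM early, and strands near 0 early entered the test only through their late counts. The early level is also part of the change itself, so the choice of strands sets part of these contrasts in level and size. The 3 late libraries all lay above the 3 early ones in 57 strands (25.1%) and all below in 60 (26.4%), so non-overlap alone was common. Without the 29 h library only 2 falls but 18 rises passed, and without the 28 h library 41 rises and 16 falls did, with a median log2 change over all strands of 0.19, against -0.10 with all 6 libraries.

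**Figure D1:**
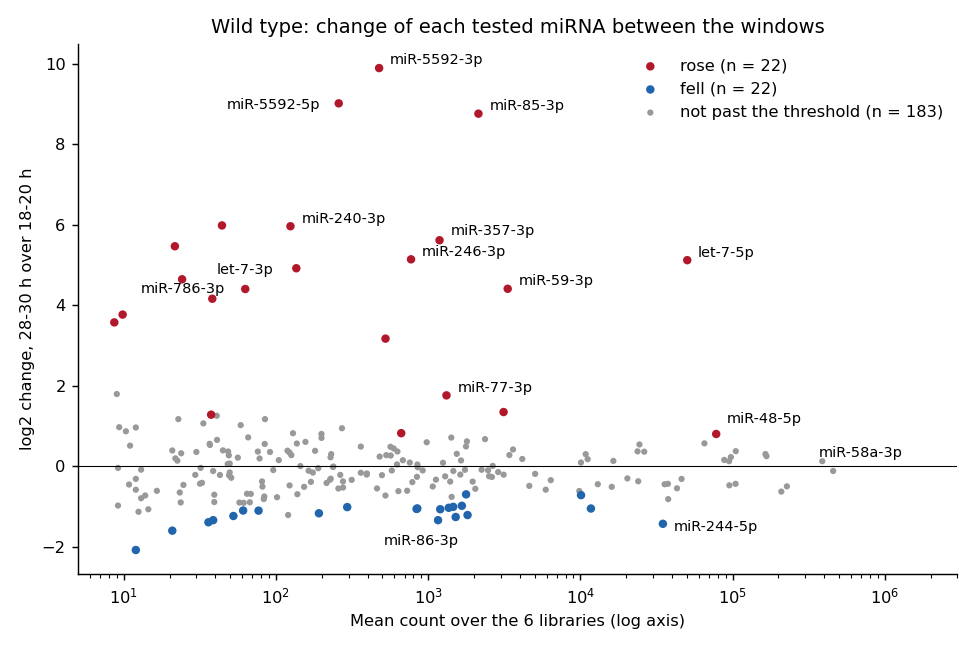
Change of each of the 227 tested strands (vertical axis, log2 of 28-30 h over 18-20 h) against its mean count over the 6 libraries (horizontal axis, log scale), with risers in red, fallers in blue and the rest in grey. The 22 risers reach 9.89 while the 22 fallers stay between -0.69 and -2.08.

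let-7-5p, the mature let-7 guide, was the most abundant strand with a rise over 4-fold. It had 29309, 26081 and 35463 CPM at 28, 29 and 30 h, against 641, 850 and 1044 CPM at 18, 19 and 20 h. Every late library exceeded every early one by more than an order of magnitude. The log2 change was 5.12 ± 0.25 (SE; edgeR adjusted p = 1.24e-08). The hours in between showed a step rather than a slope. The level was 2991 CPM at 21 h, 8539 CPM at 22 h and 35386 CPM at 23 h, and it stayed between 25621 and 28722 CPM at 24 to 27 h. The 23 h library had the lowest total of the N2 libraries (1342759 counts) and stood apart in other values given below. The early libraries already differed in order of hour, from the lowest at 18 h to the highest at 20 h.

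The passenger let-7-3p rose by about the same factor in the contrast but not along the same course. It had 25.7, 102 and 108 CPM at 28, 29 and 30 h, against 1.31, 1.06 and 5.33 CPM at 18, 19 and 20 h, where it rested on 4, 3 and 12 counts. The windows did not overlap, and the log2 change was 4.92 ± 0.66 (edgeR adjusted p = 0.000492). In between it reached 106 CPM at 22 h and 110 CPM at 23 h and was back at 11.7 CPM at 27 h, so the level of the guide held while that of the passenger came in pulses. The passenger was 0.0875%, 0.389% and 0.304% of let-7 counts at 28, 29 and 30 h and 0.203%, 0.124% and 0.507% at 18, 19 and 20 h, and these ranges overlap. The difference between the changes of the strands was 0.20 on the log2 scale (edgeR adjusted p = 0.853).

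Of the let-7 sisters, miR-48-5p rose from an already high level. It had 31438, 32416 and 34024 CPM late, against 18943, 17657 and 18050 CPM early, a log2 change of 0.81 ± 0.15 (edgeR adjusted p = 0.0013). miR-241-5p, whose hairpin lies within 10 kb of mir-48 on the same strand of chromosome V (WBcel235 annotation), had 278, 269 and 293 CPM late, against 145, 166 and 152 CPM early (0.83 ± 0.18, edgeR adjusted p = 0.00417). The call of miR-241-5p was lost in 3 of the 6 fits that each left out a library. By counts miR-241-5p was the passenger here, averaging 665 counts against 4151.5 for miR-241-3p. The 3p strand changed by 0.19 on the log2 scale and did not pass. miR-84-5p did not pass, at 10044, 8353 and 10662 CPM late and 5108, 7695 and 6656 CPM early (0.55 ± 0.20, edgeR adjusted p = 0.0537), although its windows did not overlap. The distant relatives miR-793, miR-794-5p and miR-795-5p did not pass either, with log2 changes of -0.76, -0.55 and -0.61. In all, 3 of the 7 members of the let-7 family rose and none fell, against 9.69% of all tested strands in each direction, with a median change of 0.55 against -0.10 over all strands tested. Neither lin-4-5p (337 ± 48.5 CPM late and 414 ± 94.7 CPM early, SD, n = 3 each) nor its relative miR-237-5p (9876 ± 1351 CPM late and 7410 ± 181 CPM early) passed.

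The largest rises were of miRNAs at or near the detection floor early. miR-5592-3p had 184, 349 and 324 CPM at 28, 29 and 30 h, from 532, 1252 and 1070 counts, against 0, 1 and 1 counts at 18, 19 and 20 h. The ratio of the summed counts, each scaled by its totals, was 1189, with a 95% counting interval of 329 to 9822. Its other strand, miR-5592-5p, had 292, 555 and 701 counts late, against 0, 0 and 2 counts early, a ratio of 645 (178 to 5329). Both strands were thus nearly absent from every early library and present in every late one. miR-5592-3p was still at no more than 0.750 CPM through 23 h, reached 8.02 CPM at 24 h and 43.1 CPM at 25 h, and had 62.9 and 118 CPM at 26 and 27 h. The hairpin is annotated on both strands of chromosome X at nearly the same place, inside the protein-coding gene *aakb-1*, and the copies cannot be told apart here.

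miR-85-3p reached the highest level among the strands that started under 5 CPM. miR-85 is known in worms to lower the heat shock chaperone gene *hsp-70*. It had 530, 1516 and 1768 CPM at 28, 29 and 30 h, against 2.94, 1.76 and 3.55 CPM at 18, 19 and 20 h. Every late library stood far above every early one, and the log2 change was 8.76 ± 0.51 (edgeR adjusted p = 1.21e-06). It was still climbing within the late window, 3.33-fold between 28 and 30 h. miR-59-3p rose from a higher early level, at 952, 2588 and 2195 CPM late, against 93.8, 74.5 and 85.7 CPM early (4.41 ± 0.29, edgeR adjusted p = 1.82e-07). miR-246-3p, a miRNA linked in worms to a longer adult life span, had 266, 492 and 605 CPM late, against 10.46, 11.65 and 14.65 CPM early (5.14 ± 0.29, edgeR adjusted p = 4.93e-08). None of these windows overlapped.

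Other steep rises came in genomic neighbours. miR-240 and miR-786 lie within 10 kb of each other on the same strand of chromosome X, and miR-786 is known for setting the defecation rhythm in the intestine. miR-240-5p had 192, 315 and 370 CPM late, against 15.04, 28.94 and 49.27 CPM early, and its log2 change was 3.17 ± 0.40 (edgeR adjusted p = 0.000321). miR-240-3p had 62.4, 64.7 and 98.6 CPM late, against 0.327, 0.353 and 3.11 CPM early (5.97 ± 0.51, edgeR adjusted p = 2.03e-06). miR-786-3p had 27.4, 32.1 and 51.4 CPM late, against 0.327, 0.706 and 4.44 CPM early (4.41 ± 0.57, edgeR adjusted p = 0.000216). In all 3 strands the highest early library was that of 20 h, and no late library was as low. miR-786-5p also rose, by 4.65 ± 0.66 on the log2 scale, and so all 4 strands of the neighbours rose. miR-357 and miR-358, which lie within 10 kb of each other on chromosome V, inside *symk-1* on its opposite strand, rose in all 4 strands too. miR-357-3p had 614, 754 and 766 CPM late, against 11.8, 14.5 and 16.0 CPM early (5.62 ± 0.22, edgeR adjusted p = 3.79e-09), and miR-358-3p had 68, 110 and 84 counts late, against 1, 2 and 0 counts early, a ratio of 72.8 with a counting interval of 24.6 to 355. The passengers miR-357-5p and miR-358-5p rested on 3 and 2 early counts, with ratios of 13.6 (4.39 to 68.3) and 53.3 (14.5 to 445).

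miR-77 rose in both strands from a level that was well measured early. miR-77-3p had 523, 647 and 784 CPM late, against 177, 175 and 202 CPM early (1.77 ± 0.18, edgeR adjusted p = 1.48e-05). miR-77-5p had 1219, 1431 and 1678 CPM late, against 617, 634 and 393 CPM early (1.35 ± 0.20, edgeR adjusted p = 0.00031). The windows were apart in both. The remaining risers were rare: miR-246-5p with 3 early counts in total, miR-4812-5p at 17.3 ± 2.17 CPM late and 6.90 ± 0.980 CPM early (SD, n = 3 each), and miR-1817 with 10, 78 and 132 counts late, against 5, 2 and 2 counts early. The calls of miR-4812-5p and miR-1817 were each lost in 4 of the 6 fits that left out a library. Of the 6 miRNAs that the study text had named as late risers (miR-357-3p, miR-358-3p, miR-240-5p, miR-786-3p, miR-359 and miR-85-3p), 5 rose and miR-359 did not pass, at 14.5 ± 6.30 CPM late and 6.64 ± 2.44 CPM early (SD, n = 3 each). The study described those rises from a longer hourly time course, separate from these libraries, that covers the same hours. The same study also held the libraries used here, so the list cannot be taken as fully independent of them.

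**Figure D2:**
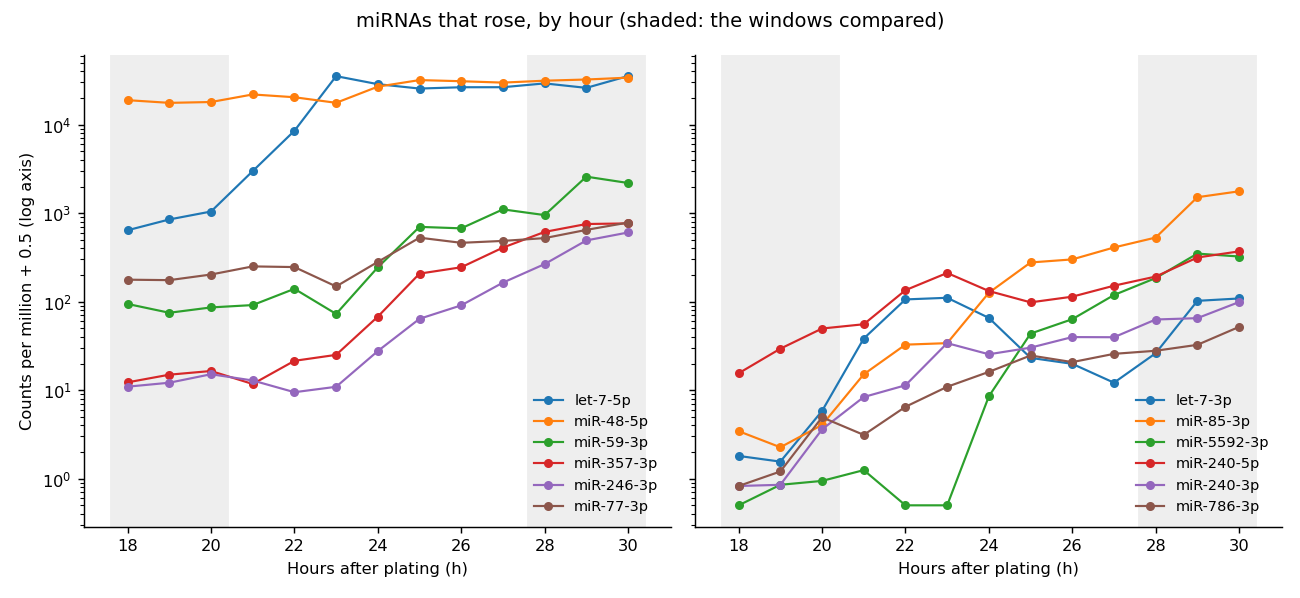
Level of 12 risen strands in the 13 N2 libraries (vertical axis, CPM plus 0.5, log scale) against hours after plating, with the windows shaded. let-7-5p steps up to 35386 CPM by 23 h and is somewhat lower at 24 to 27 h, let-7-3p dips to 11.7 CPM at 27 h, and miR-85-3p is still climbing at 30 h.

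The hours in between were used to place each change in time, as the hour after which a strand stayed on the late side of the midpoint of the window means on the log2 scale. Risers had a median midpoint of 25 h (range 22 to 29 h) and fallers one of 26 h (23 to 28 h). The earliest were let-7-5p, miR-240-3p and miR-240-5p at 22 h, followed by miR-241-5p and miR-786-3p at 23 h and miR-48-5p and miR-85-3p at 24 h, with miR-1817 last at 29 h. Of the 22 risers 17 crossed their midpoint only once, and of the 22 fallers 11 did. Within the late window 21 of 22 risers were higher at 30 h than at 28 h and 12 were so by over 1.5-fold, against 166 and 48 of all 227 tested strands. miR-4812-5p was the exception. Fallers were near level, with a median ratio of 30 h over 28 h of 1.03, against 1.67 for risers and 1.17 for all tested strands.

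The fall with the largest share of the library was that of miR-244-5p, a guide from chromosome I. It had 4468, 7993 and 7572 CPM at 28, 29 and 30 h, against 21190, 15919 and 14395 CPM at 18, 19 and 20 h. The lowest level was at 28 h, and the windows were well apart. The log2 change was -1.42 ± 0.19 (edgeR adjusted p = 0.000136), and it still had 14468 CPM at 25 h against 8017 CPM at 26 h. miR-244-5p and miR-86-3p were the only 2 fallers that passed in every fit that left out a library.

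Among guides, 6 others fell with a mean of at least 50 counts and a place among the 15 largest falls. miR-1022-5p had 366, 270 and 306 CPM late, against 729, 791 and 706 CPM early (-1.26 ± 0.21, edgeR adjusted p = 0.000867). miR-254-3p had 305, 261 and 246 CPM late, against 561, 599 and 514 CPM early, and miR-249-3p had 191, 185 and 197 CPM late, against 358, 444 and 362 CPM early. In these 3 the windows lay clearly apart. miR-231-3p had 259, 399 and 353 CPM late, against 839, 559 and 560 CPM early. The other 2 were rarer. miR-1832a-5p averaged 11.2 ± 1.76 CPM late and 25.6 ± 5.56 CPM early, and miR-791-5p averaged 17.2 ± 0.615 CPM late and 35.7 ± 8.33 CPM early (SD, n = 3 each). miR-791 is known for its place in carbon dioxide sensing neurons. Among the neuronal markers miR-790-5p, by counts a passenger here, also fell (7.84 ± 2.21 CPM late and 19.2 ± 1.21 CPM early). The other neuronal markers did not pass: lsy-6-3p, which sets taste neuron asymmetry, changed by -0.90, miR-124-3p by -0.47 and miR-791-3p, also a passenger by counts, by -0.46 on the log2 scale. miR-1018, which has a single listed strand, averaged 13.6 ± 1.48 CPM late and 28.3 ± 3.64 CPM early, and its call was lost in 4 of the 6 fits that left out a library. The other fallers were the guides miR-245-3p (2632 ± 90.1 CPM late and 4223 ± 833 CPM early), miR-233-3p (468 ± 32.1 CPM late and 738 ± 76.1 CPM early) and miR-5546-3p (16 counts late and 56 counts early, summed over the window), and the single strands miR-796 (69 counts late and 147 counts early) and miR-2221 (36 counts late and 89 counts early). The call of miR-233-3p was lost in all 6 fits that left out a library, and that of miR-245-3p in 5. Those of miR-1832a-5p, miR-791-5p and miR-790-5p were each lost in 4.

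Passengers made up 9 of the 22 fallers, the others being 10 guides and 3 single strands. Since 81 passengers were tested, 11.1% of them fell, against 7.69% of 130 guides and 9.69% of all strands, and 11.1% of passengers and 9.23% of guides rose. miR-229-3p had 2920, 2413 and 2731 CPM late, against 4747, 6186 and 5413 CPM early (-1.04 ± 0.19, edgeR adjusted p = 0.0013). miR-86-3p had 215, 254 and 227 CPM late, against 620, 579 and 509 CPM early (-1.33 ± 0.17, edgeR adjusted p = 0.000117). miR-2-5p, whose hairpin lies inside *ppfr-1* within 10 kb of mir-71 on the same strand, had 354, 402 and 382 CPM late, against 1133, 772 and 667 CPM early. No late library of these reached the lowest early one. miR-61-5p had 191, 188 and 207 CPM late, against 376, 385 and 418 CPM early. miR-228-3p had 373, 276 and 289 CPM late, against 701, 564 and 632 CPM early, and its guide miR-228-5p just missed the threshold at -0.81 ± 0.21 (edgeR adjusted p = 0.0132). The neighbours miR-73-5p and miR-74-5p on chromosome X averaged 40.6 ± 4.15 and 67.4 ± 4.34 CPM late and 89.0 ± 35.8 and 132 ± 28.7 CPM early (SD, n = 3 each), while miR-73-3p and miR-74-3p changed by -0.31 and -0.25 on the log2 scale and did not pass. The values nearest the threshold were miR-45-5p inside it (-0.98, edgeR adjusted p = 0.00848) and miR-2210-5p outside it (1.26, edgeR adjusted p = 0.0101). Of the 6 fits that left out a library, 5 lost the call of miR-45-5p, 4 that of miR-74-5p and 3 that of miR-73-5p.

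**Figure D3:**
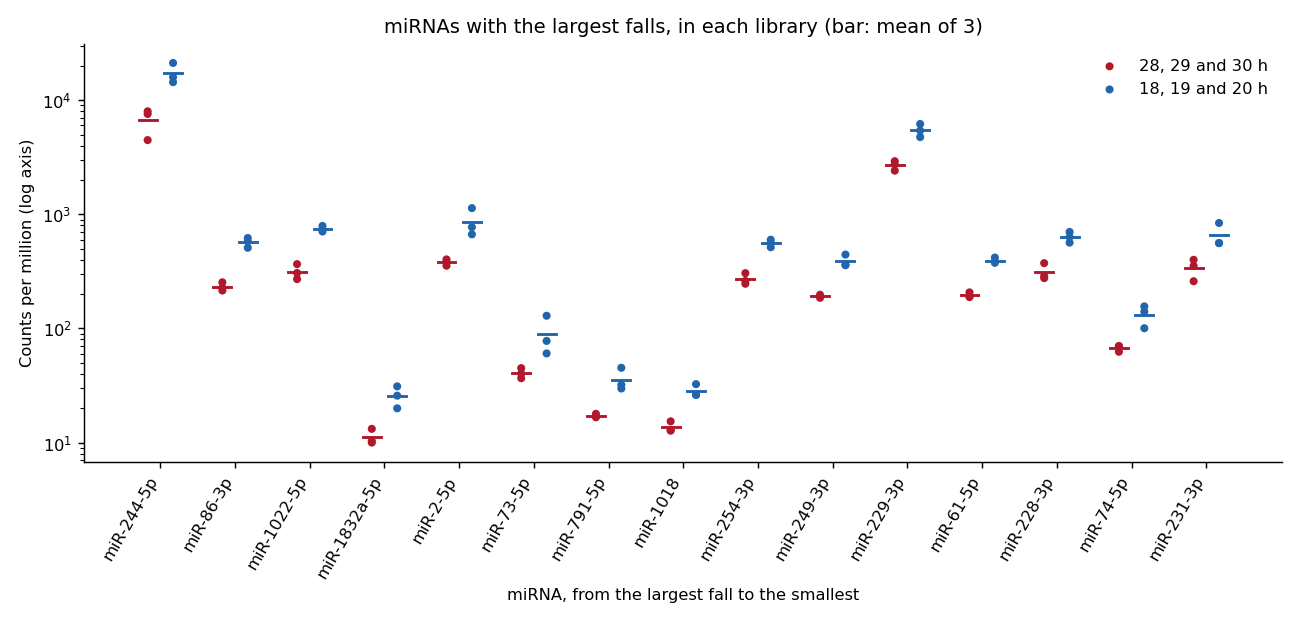
The 15 largest falls with a mean of at least 50 counts, each library as a point and the window mean as a bar (vertical axis, CPM on a log scale; 28, 29 and 30 h in red to the left of 18, 19 and 20 h in blue). No late point of these miRNAs reaches the early points of the same miRNA, and miR-244-5p is the most abundant.

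The fate of both strands could be compared for 81 hairpins. Both strands rose in 8, namely let-7, miR-77, miR-240, miR-246, miR-357, miR-358, miR-786 and miR-5592. The 5p strand alone passed as a rise in 3 and as a fall in 7, the 3p strand alone passed as a fall in 4, and neither passed in 59. Here alone means only that the other strand missed the threshold, not that the strands differed. In no hairpin did both strands pass as falls or the strands pass in opposite directions. A direct test of the difference between the strands passed for 4 hairpins (4.94%), and in each the 3p strand lost ground to the 5p strand. Of the hairpins with a single called strand, only miR-86 and miR-229 were among these 4. The next nearest of them was miR-73 (edgeR adjusted p = 0.0314). Among the hairpins with a single fallen strand, only in miR-229 did the other strand change upward (0.14). Both strands changed downward in miR-2, miR-45, miR-61, miR-73, miR-74, miR-86, miR-228, miR-231, miR-790 and miR-791. The strands of miR-228, miR-231 and miR-790 differed by 0.22, 0.11 and -0.43 on the log2 scale (edgeR adjusted p = 0.569, 0.827 and 0.454).

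For miR-84, a let-7 sister, the 3p strand was 1.34%, 2.63% and 2.15% of the hairpin at 28, 29 and 30 h, against 5.88%, 3.79% and 3.56% at 18, 19 and 20 h. The changes were 0.55 for the 5p strand and -0.60 for the 3p strand, a difference of 1.15 on the log2 scale (edgeR adjusted p = 0.00115). For miR-86 the 3p strand was 3.37%, 3.38% and 2.79% late, against 5.23%, 6.89% and 6.19% early, a difference of 0.97 (edgeR adjusted p = 0.00131). For neither did the windows overlap. miR-229 is cut from a cluster with mir-64, mir-65 and mir-66 on chromosome III, and its strands were close to equal. The 3p strand was 36.1%, 28.8% and 30.6% late, against 45.2%, 56.3% and 53.1% early, so that it was the larger strand at 19 and 20 h and the smaller at 28, 29 and 30 h (difference 1.18, edgeR adjusted p = 0.00184). miR-43 was rare. Its 3p strand, a member of the miR-2 family, was 12.9%, 22.6% and 16.3% late, against 46.5%, 37.8% and 30.6% early, from between 32 and 100 counts a library (difference 1.49, edgeR adjusted p = 0.00493). The share was back at 45.0% at 25 h, so the difference between the windows of miR-43 was no steady drift. Wilson 95% intervals for miR-43 were 9.25% to 17.58% at 28 h and 39.96% to 53.18% at 18 h. Scaling by library totals alone left 1 of the 4 hairpins past the threshold, and the fits that each left out a library called between 1 and 7 hairpins in all.

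miR-240 showed the opposite tilt, with the 3p strand at 24.6%, 17.02% and 21.0% of the hairpin late, against 2.13%, 1.205% and 5.93% early. These early shares rested on 1, 1 and 7 counts, and the difference of -2.79 did not pass (edgeR adjusted p = 0.0372). miR-60, miR-73, miR-61 and miR-74 tilted the same way, by -1.22, -0.85, -0.61 and -0.76. They missed the threshold too (edgeR adjusted p between 0.0274 and 0.0443). miR-243 tilted like the called hairpins and missed it (0.83, edgeR adjusted p = 0.0227). The 3p loss of the called hairpins was thus not shared by all hairpins near the threshold.

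**Figure D4:**
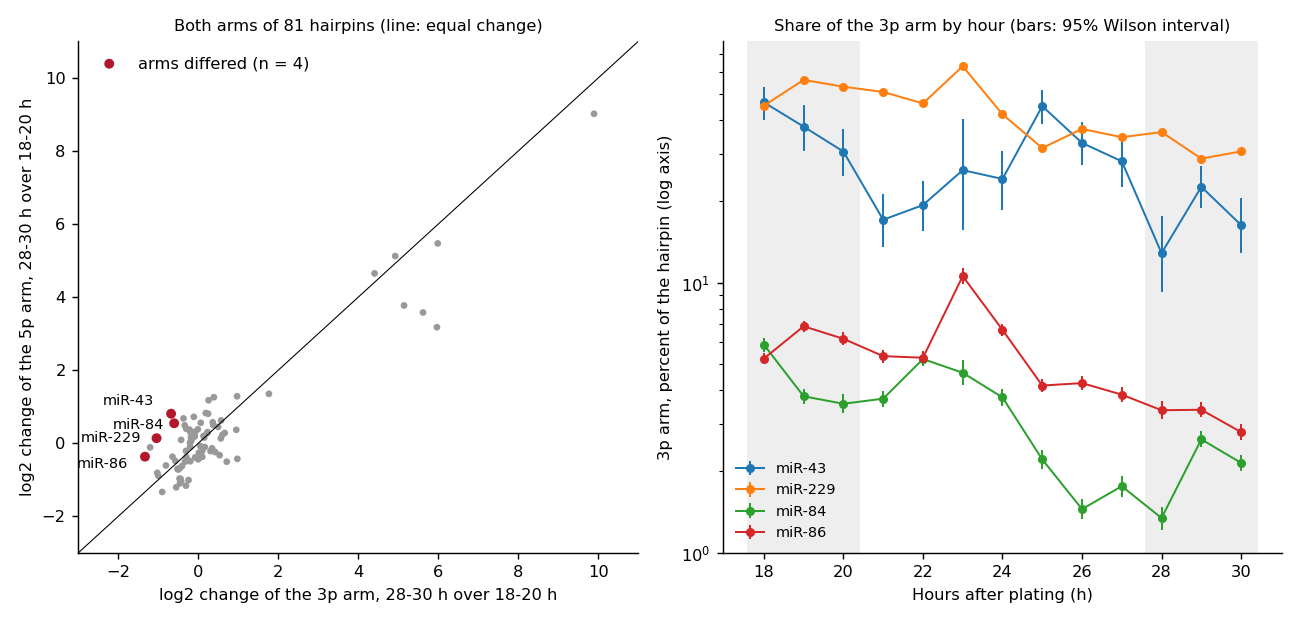
Left, the log2 change of the 5p strand against that of the 3p strand for 81 hairpins, with the 4 whose strands differed in red, all above the line of equal change. Right, the 3p share of those 4 hairpins by hour with 95% Wilson intervals (log axis, windows shaded), in which miR-84 has 1.34% at 28 h and 5.88% at 18 h and miR-43 is back at 45.0% at 25 h.

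Composition followed from a few abundant strands. Between the window means 13.4 percentage points of the library changed hands, of which let-7-5p gained 2.94, miR-48-5p 1.44, miR-81-3p 1.38, miR-71-5p 1.24 and miR-82-3p 1.11. For scale, single late and early libraries differed by between 11.7 and 18.9 points, and libraries of a window by between 3.92 and 12.5 points. let-7-5p made up 2.93%, 2.61% and 3.55% of counts late, against 0.0641%, 0.0850% and 0.104% early. The rest of its family made up 4.57% ± 0.212 late and 2.97% ± 0.149 early (SD, n = 3 each). The 22 risers held 7.07% ± 0.715 of the counts late and 2.01% ± 0.0527 early, but without let-7-5p and miR-48-5p only 0.775% ± 0.236 late and 0.105% ± 0.00961 early, since the strands with the largest folds were rare. The 22 fallers held 1.53% ± 0.174 late and 3.35% ± 0.429 early.

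Of the 5 largest gainers only let-7-5p and miR-48-5p passed the test, and of the 5 largest losers only miR-244-5p did, which lost 1.05 points. miR-57-5p, which is expressed in the tail region and acts there with the Hox gene *nob-1*, had 65761, 51308 and 54759 CPM late, against 66455, 98664 and 95861 CPM early, a loss of 2.97 points (-0.62 ± 0.22, edgeR adjusted p = 0.0468). The 18 h library was close to that of 28 h, so the windows only just parted. miR-72-5p had 64303, 63122 and 66933 CPM late, against 92762, 89654 and 85366 CPM early, a loss of 2.45 points (-0.49 ± 0.15, edgeR adjusted p = 0.026). miR-90-3p and miR-44-3p lost 0.993 and 0.965 points. miR-44-3p and miR-45-3p have the same mature sequence, so their separate values are uncertain and are not independent of each other. The 4 members of the miR-44 family, which promotes the sperm fate, changed by -0.41 to -0.44 on the log2 scale, none past the threshold. Together they held 5.20% ± 0.262 of counts late and 6.86% ± 0.155 early (SD, n = 3 each).

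Of the 5 most abundant strands (miR-58a-3p, miR-81-3p, miR-72-5p, miR-57-5p and miR-71-5p) none passed. miR-58a-3p, a bantam relative that modulates TGF-beta signalling, had 123513, 180345 and 138370 CPM late, against 196533, 138294 and 129442 CPM early. The windows overlapped, and its change of -0.11 ± 0.18 (edgeR adjusted p = 0.622) turned positive in 5 other fits. miR-81-3p, of the same family, had 151180, 126461 and 133766 CPM late, against 111151, 128873 and 129972 CPM early (0.13 ± 0.19, edgeR adjusted p = 0.586). miR-82-3p had 62634, 56934 and 63931 CPM late, against 43092, 55082 and 52120 CPM early (0.26 ± 0.18, edgeR adjusted p = 0.261). The family as a whole held 35.5% ± 1.59 late and 33.5% ± 2.10 early. miR-71-5p, which lengthens life span, differed more between hours of a window than between windows, at 77708, 58216 and 50099 CPM late and 30363, 47675 and 70760 CPM early (0.31 ± 0.34, edgeR adjusted p = 0.476). miR-235-3p, the hairpin edited in the other strain, had 18330, 9494 and 8275 CPM late, against 16972, 17868 and 18552 CPM early, and did not pass (-0.54 ± 0.34, edgeR adjusted p = 0.239). The 28 h library lay among the early values.

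No member of 4 other groups passed. None of the 7 tested strands of the miR-35 family, which is known from embryos (median -0.02 on the log2 scale), the 6 of the miR-51 family (-0.31), the 4 strands of the miR-2 family (-0.33) or the 4 5p strands of the miR-229 cluster (0.26) passed, against 19.4% of all strands tested, whose median was -0.10. In the miR-229 cluster miR-65-5p came closest, at 25594, 24471 and 27891 CPM late, against 15951, 16990 and 18205 CPM early (0.57 ± 0.16, edgeR adjusted p = 0.0162), and its windows did not overlap. The windows of miR-64-5p did not overlap either (0.38 ± 0.15, edgeR adjusted p = 0.0613), while those of miR-229-5p and miR-66-5p did. As a group these 4 strands gained share, although none passed singly. They held 10.47% ± 0.671 of counts late and 8.13% ± 0.308 early (SD, n = 3 each), a gain of 2.34 points. The lowest late library had 9.72% and the highest early one 8.36%. miR-41-3p and miR-58b-3p had too few counts to test.

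Evenness of the library differed little between the windows. The 10 most abundant strands held 67.2% ± 1.66 of counts late and 69.4% ± 0.249 early, and the effective number of miRNAs, the exponential of the Shannon entropy, was 25.2 ± 1.11 late and 24.3 ± 0.314 early (SD, n = 3 each). Both gave p = 0.1 in an exact two-sided permutation test, the smallest that 3 libraries against 3 allow. With let-7-5p left out of the total the differences shrank to -0.20 points and 0.0897 strands. The 5p strands held 42.6% ± 1.29 late and 41.8% ± 2.91 early (exact p = 0.8). The number of strands with a count was 309 ± 11.9 late and 302 ± 5.51 early (exact p = 0.5), and strands at 10 CPM or more numbered 187, 196 and 194 late, against 185, 182 and 182 early. Passengers held 1.56%, 1.65% and 1.68% of counts late, against 2.02%, 2.02% and 2.03% early (exact p = 0.1). The share was nearly constant early and lower in every late library, by 0.398 points. Of this, miR-229-3p alone lost 0.276 points, and the other passengers held 1.36% ± 0.0766 late and 1.48% ± 0.0722 early, with late and early libraries touching at 1.41%.

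**Figure D5:**
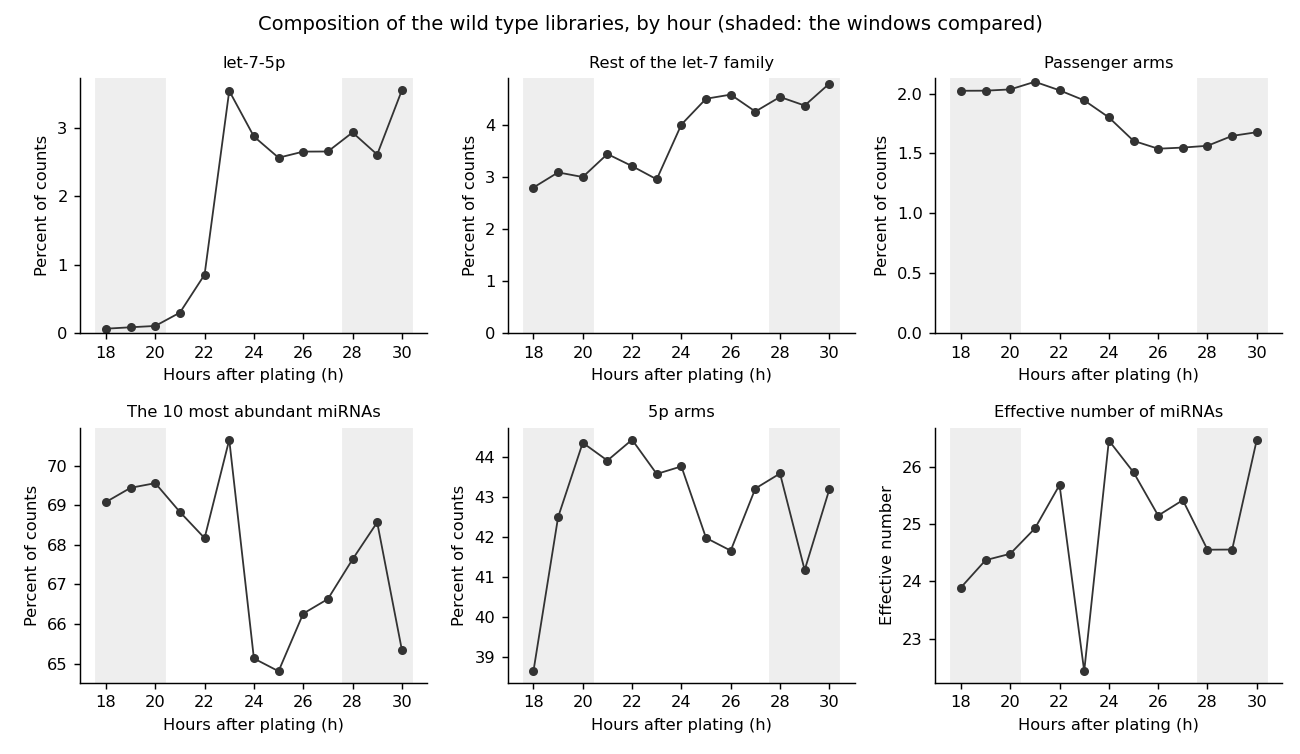
Composition of the 13 N2 libraries by hour, as percent of miRNA counts or effective number (vertical axes; windows shaded). let-7-5p steps to 3.54% at 23 h and is 2.61% to 3.55% at 28 to 30 h, and the passenger share is near 2% through 22 h and 1.54% at 26 h.

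The same contrast in the mir-235 seed mutant, in libraries the N2 comparison did not use, called 20 strands higher (8.81%) and 5 lower (2.2%) of 227. Of the 22 N2 risers 21 were tested there, all 21 had the same direction and 18 passed. On the log2 scale let-7-5p changed by 4.999 in the mutant and by 5.12 in N2, miR-85-3p by 8.71 in the mutant and by 8.76 in N2, and miR-48-5p by 1.08 in the mutant and by 0.81 in N2, all past the threshold. let-7-3p changed by 2.80 in the mutant and did not pass (edgeR adjusted p = 0.0393). miR-58c and miR-359 passed as rises in the mutant but not in N2. miR-359 changed by 1.99 in the mutant (edgeR adjusted p = 0.00507) and by 1.07 in N2 (edgeR adjusted p = 0.0353). All 22 N2 fallers had the same direction in the mutant, but only miR-1022-5p, miR-229-3p, miR-228-3p and miR-2221 passed there. The share of all tested strands that kept their direction was not computed, so these counts of shared direction have no background to be read against. miR-244-5p changed by -0.85 and miR-86-3p by -1.15 in the mutant. The difference of the change between the strains was tested for 235 strands, and edgeR called none (0%). At an unadjusted p under 0.05 it had 5, DESeq2 had 4 and likewise called none. Among edgeR's 5 was the unedited miR-235-3p (2.87, edgeR unadjusted p = 0.032). The mutant carries the edited hairpin in its place, so this value does not measure a change of that miRNA there.

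The windows fall at different phases of the molting rhythm, so rhythmic and gradual changes cannot be told apart in this contrast. Setting 25 to 27 h, 7 h after the early window, against 18 to 20 h gave 19 rises and 9 falls, of which 16 and 7 were among those above.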

How the data were processed

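Small RNA libraries (CleanTag kit, size-selected on a gel, single-end sequencing on a NextSeq 500) were made from 26 whole-worm samples. The authors trimmed adapters, aligned reads with Bowtie (version not given in the sources used here) to the ce10 genome, and deposited raw counts of reads per mature miRNA strand of miRBase, taken on the same strand near the annotated 5′ end. Their second deposited table held log2 values of depth-scaled counts plus 8, which matched a recomputation from the counts to within 0.0005 and was used only for that check. All columns of both tables were matched to samples, so 0 were left out.

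The deposited counts went into edgeR 4.0.16 (R 4.3.3; TMM factors, filterByExpr by window, robust quasi-likelihood fit, Benjamini-Hochberg adjustment, threshold 0.01), and strands of a hairpin with diffSpliceDGE on the same fit. The tested strands held at least 99.988% of counts in each library. Alternatives used limma 3.58.1, DESeq2 1.42.0, other scalings, filters and windows, and each library left out in turn. The scripts were tested on simulated data. Shares were compared with exact permutation tests (scipy 1.17.1).

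Named miRNAs were the 15 largest rises and 15 largest falls past the threshold among strands averaging 50 counts or more, the 5 largest gains and losses of share, the 5 most abundant strands, hairpins whose strands differed, and members of lists by name; others named, such as miR-4812-5p, miR-1817 and miR-2210-5p, were chosen after their values were seen. The comparison and the lists were chosen with earlier results of these data known. Hairpin positions, for chromosomes and neighbours only, came from the WBcel235 annotation, whose build differs from ce10. Mature sequences were not used here, so families are by name.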

Additional observations from a re-analysis of the deposited data

Results flagged for a closer look

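Among the 7 N2 libraries between the windows, the 23 h library stood apart from the other 6 in 5 of 49 reported values, and no other hour did in any. By chance about 1 in 20 such groups would hold a value this far from the rest. It had 203457 CPM of miR-81-3p (other hours 106926 to 132305), 97900 CPM of miR-82-3p (43763 to 59002), 51354 CPM of miR-58a-3p (133779 to 178390), 3215 CPM of miR-229-5p (4962 to 6280) and an effective number of miRNAs of 22.4 (24.9 to 26.5). Its total of 1342759 counts was the lowest of the 13 N2 libraries. This library lies outside the windows compared and touches only the hourly courses.

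Reads assigned to the edited miR-235-3p were present in every N2 library, which carry the unedited hairpin. They made up 2.66% of all miR-235-3p counts at 30 h (Wilson 95% interval 2.48% to 2.85%, 747 counts), against 0.0643% at 28 h, 0.0909% at 29 h and between 0.0215% and 0.542% at 18 to 27 h. These rows were left out of all totals above.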

How the results depend on the processing

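None of the 30 called strands that were followed through every alternative changed direction. The number that rose stayed between 17 and 33 outside the fits that left out a library. The number that fell was 13 with no filter, 9 with a mean of at least 50 counts, 9 for 25 to 27 h and 46 at an adjusted p of 0.05. Leaving out single libraries gave 17 to 41 rises and 2 to 18 falls, with 15 of the 22 risers and 2 of the 22 fallers past the threshold each time. The hairpins whose strands differed numbered 1 under total counts, 10 at an adjusted p of 0.05 and 1 to 7 without single libraries. miR-58a-3p, which was not called, turned to 0.0400 with no filter, 0.0349 with a mean of at least 50 counts and 0.0482 for 25 to 27 h, and without single libraries ranged from -0.212 to 0.195, positive without 18 h and without 28 h. Without let-7-5p in the total, late minus early was -0.204 points for the 10 most abundant strands, 0.0897 for the effective number and -0.349 points for passengers. By first crossing the median midpoint of fallers was 24 h. Hour as a replicate block left 0 of 235 strand differences called, as without the block, and the labels tie no hour of one strain to the other. Strands under about 50 counts and those at 0 to 3 early counts are limited by depth.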
